A study of Mus musculus with 6 samples.

Results

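The wild-type forebrain of the mouse embryo at embryonic day 15.5 (E15.5) is described here as a baseline transcriptome: which RNAs it held, at what level, and how far the libraries differed. The 3 libraries labelled wt were taken, of 6 in the series. They came from forebrains microdissected from embryos of the Dyrk1a+/- line that carried no mutant allele, and their titles call them biological replicates 1, 2 and 3. Whether a library is a single embryo is not stated in the labels, and the spread over the 3 libraries may be partly technical. The 3 Dyrk1a+/- libraries are not analysed here, and no genotypes are compared. Values are deposited read counts per gene. They are given as counts-per-million values (CPM), each the scaled count over the library total, for 1 gene across libraries and for ranks by share of the library. CPM grows with transcript length, so levels of different genes are set against each other as TPM, which is the count per kilobase of exon over the sum of that quantity for all nuclear protein-coding genes, on the same scale. Values after ± are the SD over the 3 libraries (n = 3), and sets of 3 values follow the order of replicates 1, 2 and 3.

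At this stage the cortical wall of the forebrain is a layered sheet. Apical progenitors (radial glia) divide at the ventricle and give rise, directly or through intermediate progenitors, to excitatory neurons that migrate outward, deep layers before upper layers. The ganglionic eminences below make inhibitory interneurons and striatal neurons, while gliogenesis has only begun and blood vessels, meninges, choroid plexus and microglia are already present.

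The libraries held 32865708, 25270710 and 27861000 counts over 33084 listed genes. Replicate 3 stood apart from the other pair. Over the 10950 genes with a mean of at least 10 CPM, 95 differed by more than 1.5-fold between replicates 1 and 2, against 450 between replicates 1 and 3 and 371 between replicates 2 and 3. The SD of the log2 ratio was 0.21 between replicates 1 and 2, 0.35 between 1 and 3 and 0.34 between 2 and 3. Short genes were higher in replicate 3 and long genes lower. The median log2 ratio of replicate 3 over the mean of the other libraries was 0.24 for the 735 expressed coding genes with up to 1500 bases of exon and -0.10 for the 857 with over 12000 bases. Small nuclear RNAs, histone genes and ribosomal protein genes took a larger share of replicate 3, and mitochondrial genes a smaller share, as given with each class below. Every pair of libraries differed by more than counting error, at 14.3 to 55.2 times the chi-square that counting error gives. These values cannot tell separate embryos from separate preparations of the same RNA. The share of the replicate 3 pattern in each gene's spread was not tested.

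The forebrain transcriptome was broad, with a short steep top. A mean of at least 1 CPM was reached by 16836 genes, among them 13664 of 18370 listed protein-coding genes, and the number was 16790, 16785 and 16803 in the single libraries. At least 10 CPM was reached by 10950 genes, 100 CPM by 2523 and 1000 CPM by 45. The highest 10 genes took 6.71% ± 0.871 of all counts, the highest 100 took 16.2% ± 0.849 and the highest 1000 took 44.1% ± 0.335. Of nuclear coding genes, 1427 held 50% of the coding counts and 6529 held 90%. No count was found in the wild-type libraries for 3571 listed genes. A count of 0 over the 3 libraries allows up to 0.0349 CPM by the limit of 3 counts, which covers counting error only because reads amplified by PCR are not independent molecules.

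**Figure D1:**
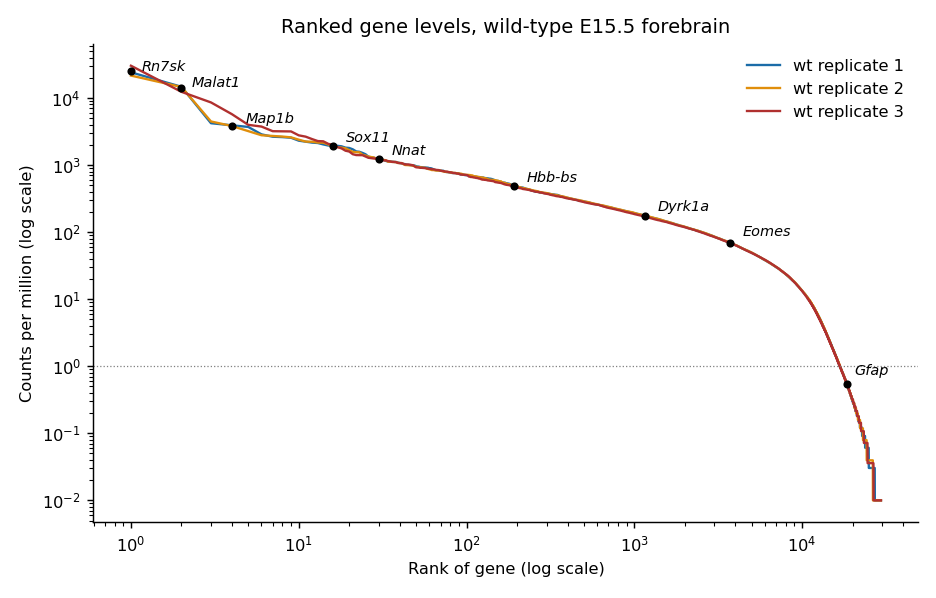
CPM (log scale) against rank of the gene (log scale), with 1 line per wild-type library and named genes marked at their mean. Each library is sorted on its own, so a rank need not be the same gene in all lines. The 3 lines lie on each other below rank 100 or so, which does not compare single genes, and part at the top. Replicate 3 is highest at the first rank (Rn7sk) and lowest at the second (Malat1). The dotted line marks 1 CPM.

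The highest entries by CPM were structural and nuclear RNAs. Rn7sk, the 7SK RNA that holds the transcription elongation factor P-TEFb inactive (chr9:78175303-78175633), led at 24147, 21589 and 30280 CPM. Malat1, a long non-coding RNA of nuclear speckles, followed at 14690, 14582 and 12351 CPM. Replicate 3 was the highest library for Rn7sk and the lowest for Malat1. The RNA component of RNase P, Rpph1, which trims tRNA precursors, stood at 3920, 4466 and 8583 CPM, and that of RNase MRP, Rmrp, which acts in ribosomal RNA maturation, at 2031, 2588 and 5731 CPM. For both of these, replicate 3 was clearly above the other libraries, which lay close together. Without replicate 3 the share of 7SK, RNase P and RNase MRP RNA together was 2.94% of counts, against 3.44% ± 0.882 with it (3.01%, 2.86% and 4.46%).

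Coding genes of the cytoskeleton, of translation and of neurons followed. Map1b, a microtubule-associated protein of extending axons, was the highest coding gene by CPM at 3703, 3818 and 3979. Others among the 20 highest genes of all kinds by CPM were the tubulins Tubb5, Tuba1a and Tubb3, the dynein heavy chain Dync1h1, the collapsin response mediator Dpysl3, the microtubule-actin crosslinker Macf1, the spectrin Sptan1, the dendritic protein Map2 and the migration gene Dcx. Doublecortin (Dcx) stood at 1817, 1775 and 1284 CPM, lowest in replicate 3. Sox11, a transcription factor of newborn neurons, was the only transcription factor among these 20 genes, at 1956, 2164 and 1636 CPM, and replicate 3 was again the lowest library. Also in this group were Actb, the elongation factors Eef1a1 and Eef2, and Gm26917 and Meg3, both annotated as long non-coding RNAs.

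Ranking by CPM favours long transcripts. Over 13655 nuclear coding genes at 1 CPM or more, Spearman's correlation of exon length was 0.43 with CPM and -0.0015 with TPM, and only 35 genes were in the highest 100 of both scales. The median exon length was 11157 bases for the highest 100 by CPM, 1926 bases for the highest 100 by TPM and 4677 bases over all these genes. By TPM the 10 highest nuclear coding genes were Tuba1a, Eef1a1, Actb, Tubb3, Tubb5, Tubb2b, Nnat, Eef2, Rplp1 and Hbb-bs. They are 4 tubulins, an actin, both main translation elongation factors, a ribosomal stalk protein, an imprinted membrane proteolipid (Nnat) and an adult beta globin (Hbb-bs).

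Tuba1a, the alpha tubulin of postmitotic neurons (chr15:98949837-98953703), led at 6753, 6912 and 7872 TPM. Eef1a1, which brings aminoacyl-tRNA to the ribosome, was at 5851, 5971 and 6868 TPM. Tubb3, the neuron-specific beta tubulin, was at 5496, 4987 and 5933 TPM. Each of these 3 genes was highest in replicate 3. Several neighbours in the order overlapped in mean and SD. Eef1a1 (6230 ± 555) and Actb (5940 ± 380) did, although Eef1a1 was above Actb (5641, 5810 and 6368 TPM) in every library. The run from Tubb2b (3802 ± 458 TPM) through Nnat (3755 ± 441), Eef2 (3689 ± 258) and Rplp1 (3613 ± 520) to Hbb-bs (3547 ± 429) overlapped too. Neighbours in that run changed order between libraries. Tubb5 (4865 ± 273 TPM) was above Tubb2b in every library. Hbb-bs, a red cell gene, ran the other way, with 3968, 3562 and 3111 TPM. Tubulins, actins, globins and ribosomal proteins have near-identical copies or pseudogenes, and how reads that map to several places were counted is not given, so their single values are uncertain.

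CpG-rich promoters made up a larger share of expressed than of silent genes. Promoter windows of 300 bases (250 before and 50 after the RefSeq start, GRCm38.p6) were matched to 14326 of the 17882 nuclear coding genes considered. The CpG ratio is the number of CG dinucleotides over that expected from the C and G content, taken as high at 0.75 or more and low under 0.45. CG reads the same on both strands. The windows below show 2 very high genes, a progenitor gene and a gene of liver at 0 counts, chosen after their values were seen. They give the bases upstream of the RefSeq start that overlap no exon of the GENCODE annotation, 5′ to 3′ on the strand of the gene, with CG dinucleotides in capitals.
Eef1a1: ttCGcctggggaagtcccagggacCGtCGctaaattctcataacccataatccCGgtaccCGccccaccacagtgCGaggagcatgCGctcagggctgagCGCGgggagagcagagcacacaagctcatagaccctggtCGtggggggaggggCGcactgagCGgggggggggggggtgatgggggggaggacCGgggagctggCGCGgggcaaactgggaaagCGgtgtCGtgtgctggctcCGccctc
Tubb3: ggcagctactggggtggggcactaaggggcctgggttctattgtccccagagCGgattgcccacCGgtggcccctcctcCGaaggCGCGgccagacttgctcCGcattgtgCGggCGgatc
Fabp7: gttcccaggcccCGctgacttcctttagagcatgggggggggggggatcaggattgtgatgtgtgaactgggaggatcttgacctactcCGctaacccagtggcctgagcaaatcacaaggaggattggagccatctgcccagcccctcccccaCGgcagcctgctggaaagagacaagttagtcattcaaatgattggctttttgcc
Alb: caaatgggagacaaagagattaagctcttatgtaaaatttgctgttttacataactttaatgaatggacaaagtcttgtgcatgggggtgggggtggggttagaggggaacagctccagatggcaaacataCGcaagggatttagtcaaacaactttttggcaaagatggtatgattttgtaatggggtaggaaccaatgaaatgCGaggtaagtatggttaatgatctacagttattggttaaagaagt
The Eef1a1 run (chr9:78481725-78481974, minus strand) holds 18 CG dinucleotides in 250 bases, and its 300-base window has a ratio of 0.697. It lies within the span of a longer GENCODE gene model of Eef1a1, between exons. The Tubb3 run (chr8:123411303-123411423, plus strand) holds 8 in 121 bases, with a window ratio of 0.765. The Fabp7 run (chr10:57784673-57784880, plus strand) holds 3 in 208 bases, with a window ratio of 0.276, although Fabp7, the brain fatty acid binding protein of radial glia, stood at 1266 ± 82.3 TPM. The Alb run (chr5:90460620-90460869, plus strand) holds 2 in 250 bases, with a window ratio of 0.272, and serum albumin had 0 counts in all 3 libraries. The low ratio was thus found in a very high and in an undetected gene.

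Across the matched genes the share with a high CpG ratio grew with level. It was 4.16% of the 1251 genes under 0.1 TPM, 8.29% of 1664 genes from 0.1 to 1 TPM, 25% of 2564 genes from 1 to 10 TPM, 55.4% of 6823 genes from 10 to 100 TPM and 63.2% of 2024 genes at 100 TPM or more, against 41.1% of all 14326 windows. Read the other way, 96.8% of the 5894 genes with a high ratio reached 1 TPM, with a median of 46.3 TPM. Of the 4422 genes with a low ratio 49.2% did, with a median of 0.942 TPM. Low-CpG windows were still 8.89% of the genes at 100 TPM or more. Each gene entered with a single window, the first listed for it, so any other start of a gene was not classed. Coding genes that are not listed in the counts did not enter, so the shares for silent genes cover listed genes only. Genes are not independent replicates, and these shares describe the libraries only.

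Nuclear protein-coding genes took 90.5%, 90.8% and 89.9% of counts. Long non-coding RNAs took 4.10%, 3.84% and 3.49%, and 2.42% ± 0.191 without Malat1. These shares include Gm26917, which lies beside a ribosomal RNA gene and took 0.372% of counts. Gene models that GENCODE keeps apart until they have experimental support took 1.41%, 1.40% and 1.12%, and pseudogenes 0.262% ± 0.00893. Coding and long non-coding shares moved little between libraries, whereas the small RNA classes were highest in replicate 3. Small nuclear RNAs of the spliceosome took 0.0192%, 0.0265% and 0.0661%. Small nucleolar RNAs, which guide the modification of ribosomal RNA, took 0.0538%, 0.0603% and 0.0929%. Cluster histone genes, whose main mRNAs end without a poly(A) tail, took 0.272%, 0.405% and 0.548%, with all 3 libraries apart.

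The machinery of protein synthesis and energy metabolism was abundant per length. The 85 cytosolic ribosomal protein genes had a median of 415 TPM and took 1.36%, 1.43% and 1.77% of counts, of which 83 reached 1 CPM. Nuclear subunits of oxidative phosphorylation had a median of 169 TPM (0.558%, 0.590% and 0.678% of counts) and proteasome subunits of 146 TPM, against 19.9 TPM over all nuclear coding genes. Both ribosomal and oxidative phosphorylation genes were highest in replicate 3. The 13 mitochondrial coding genes, in contrast, took 0.351%, 0.416% and 0.261% of counts, lowest in replicate 3. All 36 measured mitochondrial genes together took 0.346% ± 0.0794, and 0.388% without that library. Glycolytic genes had a median of 136 TPM, led by the pyruvate kinase Pkm (720 ± 55.1 TPM).

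**Figure D2:**
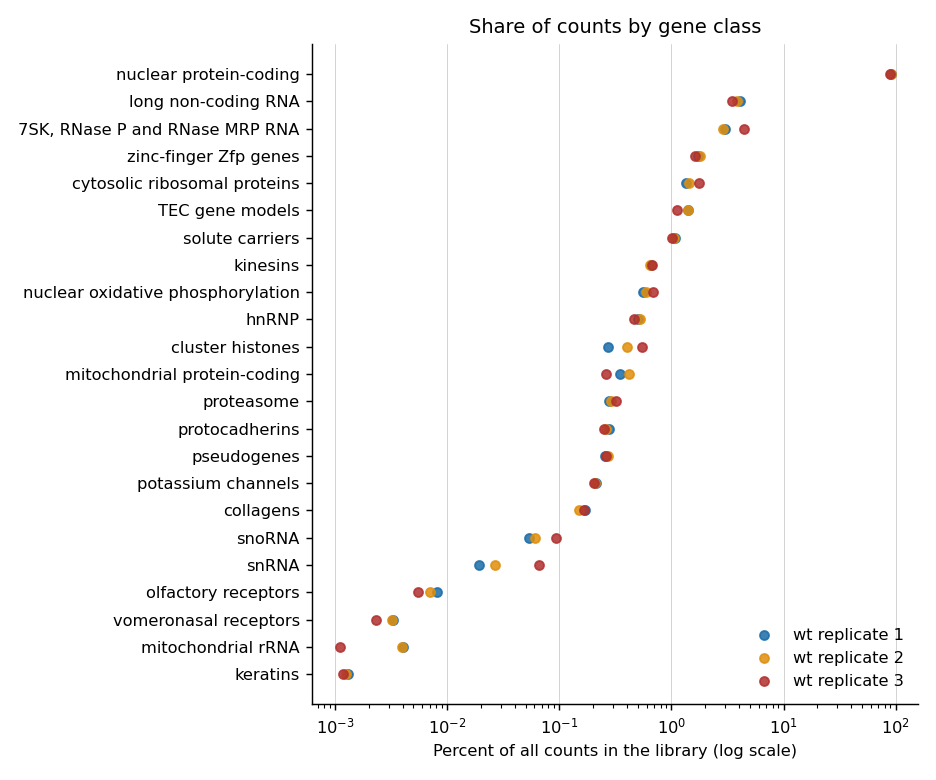
Percent of all counts in the library (log scale) taken by each gene class, with 1 point per wild-type library. Coding and most gene families hold near-equal shares in the 3 libraries, while 7SK with RNase P and MRP RNA, snRNA, snoRNA and cluster histones are highest in replicate 3 and mitochondrial genes lowest there.

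Other gene families took small and even shares of counts. The 38 kinesins, motors of axonal transport, took 0.654% ± 0.0132 of counts, led by Kif5c (745 ± 50.2 TPM). The 388 measured zinc-finger genes with Zfp symbols took 1.71% ± 0.0827 and the 69 protocadherins, which give neurons their surface identity, 0.262% ± 0.0136. Potassium channels took 0.208% ± 0.00385, with 75 of 93 members at 1 CPM or more. At the low end, 5 of 40 listed keratins, 2 of 123 olfactory receptors, 3 of 47 vomeronasal receptors and 0 of 13 defensins reached 1 CPM. All these totals are of listed genes, and family members that are not listed did not enter, so they are not family sizes. The leading olfactory receptor gene, Olfr613, stood at 74.6, 63.8 and 49.0 CPM, in a gene model with 5219 bases of exon.

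Among long non-coding RNAs, 1248 of 5341 measured reached 1 CPM. In order of CPM, which favours long transcripts, Malat1 and Gm26917 (4204, 3213 and 3748 CPM) were followed by 2 imprinted transcripts, Meg3 at 1716, 1555 and 1590 CPM and Snhg14 at 1596, 1547 and 1407 CPM. Meg3 is expressed from the maternal allele, and Snhg14 is the paternal transcript that runs antisense to Ube3a. Miat, a nuclear RNA of neural tissue, stood at 1127, 1112 and 1252 CPM. The remaining members of the 10 highest were Gm42418, Rian, Kcnq1ot1, C130071C03Rik and Gm3764. Of these, Rian (775 CPM) and Kcnq1ot1 (692 CPM) are also imprinted. Snhg14 and Kcnq1ot1 run antisense to other genes, so their counts are uncertain where strand was not used. Gm42418 was uneven, with 1903, 340 and 451 CPM. It overlaps CT010467.1 (chr17:39846353-39848827), a gene annotated as ribosomal RNA, and Gm26917 (chr17:39843013-39846341) lies directly beside that gene. The part of ribosomal RNA reads in the values of Gm26917 and Gm42418 was not tested, so their places in this order are uncertain. The order differed per length: Miat (695 ± 25.9 TPM) was above Meg3 (498 ± 38.6 TPM) and Snhg14 (323 ± 31.2 TPM), and Kcnq1ot1, with 93092 bases of exon, was at 41.4 ± 5.76 TPM.

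The imprinted genes on the list were high: all 27 reached 1 CPM, their median was 114 TPM, and together they took 0.931%, 0.929% and 0.908% of counts. The list was chosen with earlier results of these data known, so these values do not describe imprinted genes in general. Nnat led, followed by the hydrolase-like gene Mest (501 ± 22.0 TPM) and Meg3 (498 ± 38.6 TPM), which overlapped each other.

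Transcription factors of the forebrain were led by those of young neurons. All 64 listed factors reached 1 CPM, with a median of 77.7 TPM, and they took 1.21%, 1.29% and 1.11% of counts. The SoxC factor Sox11 led at 1345, 1457 and 1054 TPM. Sox4, its partner in neuronal differentiation, followed at 843, 918 and 731 TPM, and Neurod6, a basic helix-loop-helix factor of postmitotic cortical excitatory neurons, at 642, 674 and 599 TPM. All 3 genes were lowest in replicate 3, and Sox4 and Neurod6 each stayed below Sox11 in every library. Next were Zbtb18 (539 ± 84.1 TPM), a repressor needed for cortical neuron maturation, and Nfib (439 ± 55.4 TPM), a factor of deep-layer and glial development.

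Marker lists of 23 cell types and regions were measured. The order of their medians ran from cortical progenitors and deep-layer and upper-layer neurons down to tissues outside the forebrain. In bulk tissue, fewer cells of a type and less RNA per cell cannot be told apart, so a list median is not a cell share. Genes named below beyond the 3 highest of a list were picked after their values were seen.

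Apical progenitor markers had the highest median, 101 TPM, and all 18 members reached 1 CPM. Fabp7 led at 1225, 1212 and 1361 TPM, followed by the intermediate filament Vim at 248, 265 and 291 TPM and the receptor phosphatase Ptprz1 at 263, 267 and 215 TPM. Fabp7 and Vim were highest in replicate 3 and Ptprz1, which has a long transcript, lowest there. The stem cell factor Sox2, which lies within Sox2ot (92.2 CPM) on the same strand, was at 183 ± 22.1 TPM. The cortical progenitor factor Pax6 was at 28.0 ± 0.495 TPM. Per kilobase of exon, the classical factor of these cells was thus among their lower markers. By CPM, Pax6 (58.95) was close to Sox2 (67.75), so the gap between them depends on the correction for length. Dividing-cell genes had a median of 62.5 TPM (15 of 15 at 1 CPM or more), with the topoisomerase Top2a at 182, 202 and 183 TPM, the replication clamp Pcna at 108, 137 and 135 TPM and the proliferation antigen Mki67 at 117, 129 and 133 TPM.

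Intermediate progenitor markers had a median of 66.8 TPM, with 12 of 13 at 1 CPM or more. Hes6, which counters Hes1 and promotes differentiation, led at 202, 201 and 214 TPM. Neurog2, the proneural factor of cortical excitatory lineages, was at 117, 139 and 122 TPM, and Eomes, the defining factor of these cells, at 90.5, 98.3 and 90.9 TPM. The somatostatin receptor Sstr2 (105 ± 7.04 TPM) lay between Neurog2 and Eomes. These 3 transcription factors kept their order in every library.

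Deep-layer and upper-layer neuron markers were alike in median, 73.9 and 72.8 TPM, and every member of both lists reached 1 CPM (13 and 11 genes). Deep-layer markers were led by Neurod6, then by the cell cycle regulator Rprm (298 ± 23.5 TPM) and Bcl11b, the factor of corticospinal neurons, at 213, 229 and 209 TPM. Tbr1, of corticothalamic neurons, stood at 72.4 ± 7.81 TPM and Fezf2 at 73.9 ± 1.02 TPM, which overlapped. Upper-layer markers were led by Pou3f3 (136 ± 9.29 TPM), Lmo4 (111 ± 7.52 TPM) and Pou3f2 (108, 115 and 72.2 TPM, lowest in replicate 3). Cux2, a homeobox factor of these neurons, was at 59.2 ± 2.07 TPM. Some of these upper-layer genes, the Pou3f and Lmo4 genes among them, are also made by progenitors or by other neurons. Neurod6, at the head of the deep-layer list, is a factor of postmitotic cortical excitatory neurons and not of deep layers alone. The part of other neurons in the deep-layer values was not tested, so the like medians do not compare deep-layer with upper-layer neurons.

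The earliest cortical neurons gave a mixed picture. Cajal-Retzius markers had a median of 17.4 TPM, yet Reln, the extracellular guidance protein these cells secrete, stood at 237, 222 and 243 TPM, and Calb2, the calcium buffer calretinin, at 97.8, 97.0 and 103 TPM. Both genes are also used by other neurons. Subplate markers had a median of 14.2 TPM, with 7 of 8 at 1 CPM or more, led by Lpar1 (42.3 ± 5.21 TPM), St18 (33.0 ± 2.34 TPM) and Nr4a2 (23.2 ± 1.72 TPM). Cplx3, a subplate marker of later stages, was near the limit at 0.239 ± 0.132 TPM.

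Ventral forebrain markers were led by those of interneurons, which had a median of 58.3 TPM, with all 17 at 1 CPM or more. The neuropeptide Sst was at 114, 117 and 122 TPM, the GABA-making enzyme Gad2 at 113, 118 and 106 TPM and the neuregulin receptor Erbb4 at 103, 103 and 82.6 TPM. Ganglionic eminence progenitors had a median of 22.6 TPM, led by Dlx1 (89.3 ± 3.75 TPM), Ccnd1 (73.8 ± 2.94 TPM) and Dlx2 (34.2 ± 1.57 TPM), and striatal neurons of 17.0 TPM, led by Meis2 (141 ± 19.3 TPM), Isl1 (64.6 ± 2.48 TPM) and Foxp1 (59.1 ± 6.23 TPM). The dopamine receptors of mature striatal neurons were low, with Drd1 at 17.3 ± 2.09 TPM and Drd2 at 4.98 ± 0.754 TPM. Dlx6 (10.1 CPM) lies antisense to Dlx6os1 (283 CPM) and Six3 (6.17 CPM) to Six3os1 (38.4 CPM). As the strand setting of the counting is not given, the values of Dlx6 and Six3 are uncertain.

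Glial lists held both high and very low members. Astrocyte markers had a median of 47.6 TPM, led by the matricellular protein Sparcl1 (143 ± 11.5 TPM), the lipoprotein Apoe (131 ± 13.3 TPM) and the aldolase Aldoc (128 ± 13.4 TPM), which overlapped. Gfap, the filament of mature astrocytes, was at 0.742, 0.525 and 0.866 TPM and the water channel Aqp4 at 1.84, 1.74 and 1.54 TPM. Which cells of this bulk tissue made the high members of the astrocyte list, astrocytes or others, was not tested. Oligodendrocyte precursor markers had a median of 20.3 TPM, with Tnr at 43.0 ± 3.36 TPM, the growth factor receptor Pdgfra at 35.2 ± 2.76 TPM and Olig1 at 32.3 ± 0.634 TPM. Sox10, which defines the lineage, was at 2.28, 1.67 and 1.01 TPM. Myelin genes had a median of 6.86 TPM, with 5 of 8 at 1 CPM or more. The tight junction gene Cldn11 (52.4 ± 2.78 TPM), Cnp (25.2 ± 1.47 TPM) and Mbp (18.8 ± 1.1 TPM) led this list, while Mog, a protein of mature myelin, was at 0, 0.520 and 0.226 TPM. Cldn11 is also made by meningeal cells.

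Markers of cells outside the neural lineage were detected. Endothelial markers had a median of 29.0 TPM (14 of 14 at 1 CPM or more), led by the junction protein Cldn5 at 175, 174 and 195 TPM and the glucose transporter Slc2a1 (94.4 ± 10.3 TPM). Mural cell markers had a median of 21.4 TPM, led by Vtn (102 ± 6.48 TPM). Meningeal fibroblast markers had a median of 23.3 TPM, led by the collagen Col3a1 at 158, 125 and 140 TPM, with the prostaglandin synthase Ptgds at 109.9 ± 10.6 TPM. Microglial markers had a median of 14.5 TPM, with the complement gene C1qa at 43.6 ± 8.42 TPM.

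Choroid plexus and red cells were each carried by a few extreme genes. Ttr, the thyroid hormone carrier of the choroid plexus, stood at 1572, 1563 and 1801 TPM, rank 21 among nuclear coding genes, while the list median was 21.3 TPM and the next members, Clic6 (25.2 ± 2.26 TPM) and Aqp1 (23.8 ± 1.5 TPM), were far lower. Red cell markers had a median of 11 TPM and 9 of 13 reached 1 CPM, but Hbb-bs and Hbb-bt (1534, 1229 and 1004 TPM), the adult beta globins, were among the highest genes. Hba-a1 stood at 874, 756 and 611 TPM. These 3 adult globin genes were highest in replicate 1 and lowest in replicate 3. Hba-a2, a near-identical copy of Hba-a1, was at 412, 87.3 and 227 TPM, lowest in replicate 2. By contrast, Hbb-y, the embryonic beta globin, ran the other way at 40.4, 57.7 and 80.8 TPM.

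Markers of the diencephalon, the caudal part of the forebrain, had a median of 6.03 TPM and 16 of 20 reached 1 CPM, led by Tcf7l2 (46.7, 42.7 and 31.8 TPM), Lhx9 (36.0 ± 4.04 TPM) and Gbx2 (17.9 ± 2.18 TPM), all genes of the thalamus. Tcf7l2 is also made by other neural cells. Midbrain and hindbrain markers had a median of 0.283 TPM (0.132 TPM without replicate 1 and 0.392 TPM without replicate 2), with 4 of 15 at 1 CPM or more, and the dopamine-synthesis enzyme Th (8.56 ± 1.41 TPM) and the transporter Slc6a3 (2.62, 5.26 and 3.62 TPM) led it. Both were lowest in replicate 1 and highest in replicate 2. Of 39 HOX genes on the list, which pattern the hindbrain and spinal cord, 22 were measured. Of these 22 genes, 0 reached 1 CPM and 20 were under 0.1 CPM. Hoxc9 was the highest at 0.787, 1.00 and 1.3 TPM. Of 22 measured markers of other tissues 5 reached 1 CPM, led by the cartilage collagen Col2a1 at 25.6, 24.7 and 18.2 TPM and the pituitary factor Pou1f1 at 12.2, 5.12 and 3.41 TPM. In that list 10 were under 0.1 CPM. The measured HOX genes were thus at or near 0, while a few markers of the midbrain and of other tissues were measurable.

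**Figure D3:**
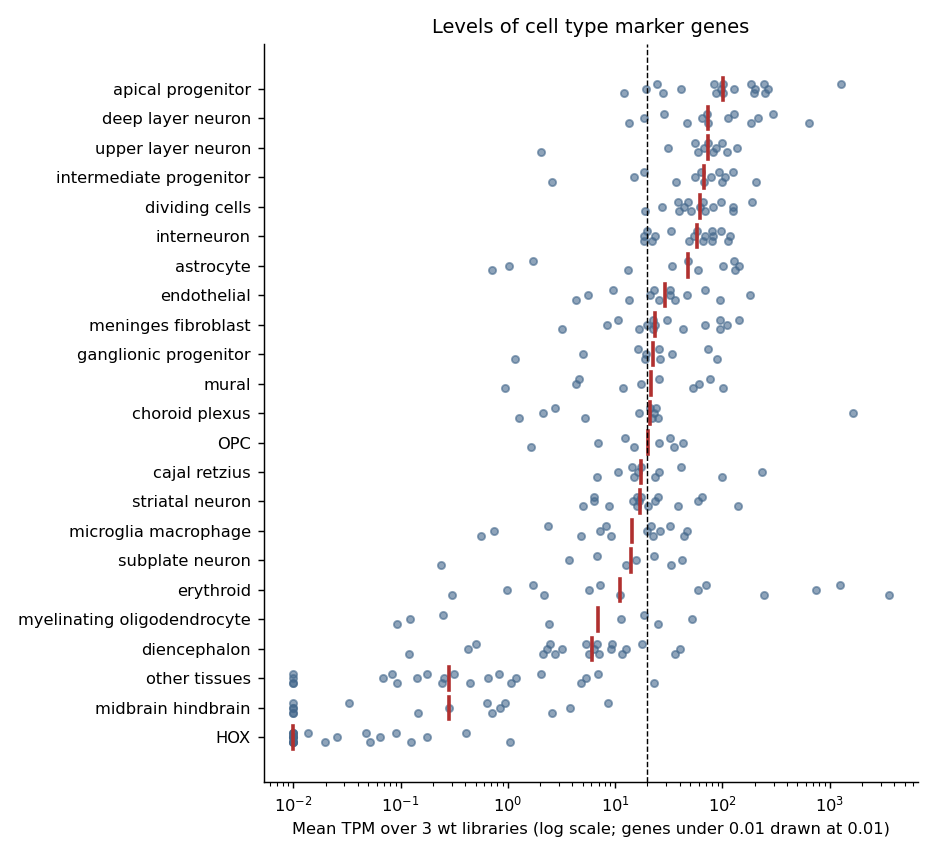
Mean TPM over the 3 wild-type libraries (log scale) of each marker gene, by cell type or region, with the list median as a red bar and the median of all nuclear coding genes, 19.9 TPM, as a dashed line; genes under 0.01 TPM are drawn at 0.01. Medians of the progenitor, dividing-cell, deep-layer, upper-layer and interneuron lists lie right of the dashed line. So do those of the astrocyte, oligodendrocyte precursor, endothelial, mural, meningeal and choroid plexus lists, several of them close to it. Cajal-Retzius and subplate medians lie left of the line, and those of other tissues, midbrain and hindbrain, and HOX genes lie far to the left.

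By list median, genes of neuronal function ranged from the cytoskeleton at the top to transmitter and peptide genes at the bottom. The 27 cytoskeletal genes of neurons had a median of 717 TPM and took 2.47%, 2.47% and 2.58% of counts. Genes of synaptic vesicle release had a median of 68.7 TPM, all 21 at 1 CPM or more, led by the vesicle protein Syt4 (285, 261 and 193 TPM) and the vesicle GTPase Rab3a (234 ± 19.1 TPM). Postsynaptic and adhesion genes had a median of 55.1 TPM, led by the presynaptic adhesion gene Nrxn3 (201 ± 6.48 TPM), with the kinase subunit Camk2b at 119 ± 8.93 TPM. Camk2a, the kinase subunit of mature excitatory synapses, was the lowest of these 19 genes at 24.9 ± 3.62 TPM. RNA-binding proteins had a median of 146 TPM, led by the splicing regulator Rbfox2 (528 ± 21.9 TPM) and by Hnrnpk (521 ± 27.3 TPM), which overlapped.

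The list of transmitter identity genes had a low median, 3.69 TPM, with 10 of 16 at 1 CPM or more, but some members were far higher. Of inhibitory markers, Gad2 stood at 112 ± 6.26 TPM, Gad1 at 79.3 ± 6.75 TPM and the vesicular transporter Slc32a1 at 54.8 ± 3.02 TPM. Of the vesicular glutamate transporters, Slc17a6 stood at 103 ± 10.1 TPM, Slc17a7 at 25.5 ± 0.296 TPM and Slc17a8 at 3.55 ± 0.718 TPM. Dbh, of noradrenergic neurons, was under 0.1 CPM. The neuropeptide list had a median of 8.11 TPM, led by Sst, Npy (79.5 ± 6.02 TPM) and Nxph1 (68.4 ± 6.96 TPM). Nxph1 encodes a neurexophilin and is not a neuropeptide gene in the strict sense.

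Nearly all listed genes of both signalling pathways reached 1 CPM. All 21 Notch pathway genes reached 1 CPM, with a median of 41.4 TPM, led by Hes6 and the receptors Notch2 (141 ± 4.6 TPM) and Notch1 (127 ± 7.67 TPM). Of 32 Wnt pathway genes 31 did, with a median of 17.6 TPM. Ctnnb1, the beta-catenin of both adhesion and Wnt signalling, was the outlying member at 1273 ± 54.7 TPM, above the ligand Wnt7b (141 ± 5.10 TPM) and the receptor Fzd3 (122 ± 10.3 TPM).

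Within families of related genes, a few members usually held most of the RNA. The 28 families ranged from near-complete dominance of 1 member to an even split. Tuba1a held 96.4%, 95% and 93.0% of alpha tubulin. Actb held 74.2% ± 1.3 of actin, Tmsb4x 87.8%, 84.6% and 79.7% of the thymosin betas, Ckb 94.0% ± 0.612 of creatine kinase and Fabp7 85.1% ± 1.06 of 3 fatty acid binding proteins. For Tmsb4x and Tuba1a the share was lowest in replicate 3. Beta tubulin was shared, with Tubb3 at 34.1% ± 0.475 and Tubb5 at 30.3% ± 0.568, and with the longest transcript as the length Tubb5 led. The alpha globin split between the near-identical Hba-a1 and Hba-a2 was 67.8%, 89.3% and 72.0% for Hba-a1, the least stable share of those given here.

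Regulatory families had clear leaders as well. Ccnd2 held 80.6% ± 1.89 of the D cyclins, which drive the G1 phase, Neurod6 72.2% ± 1.47 of the NeuroD factors, Nfib 64.6% ± 1.48 of the nuclear factor I genes and Sox11 59.2% ± 1.49 of the SoxC genes. Dnmt1, the maintenance DNA methyltransferase, held 58.5% ± 0.563 of its family and Dlx1 52.8% ± 1.44 of the Dlx genes. Pou3f3 (44.2% ± 2.48) led the Pou3f genes over Pou3f2 (31.5% ± 4.51). The neuronal RNA-binding Elavl genes had no clear leader, with Elavl3 at 31.9% ± 3.91 and Elavl2 at 27.9% ± 2.58, which overlapped. Elavl2 led with the longest transcript as the length.

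Ion channel and receptor families were led by subunits known from early development in several cases. Grin2b, the NMDA receptor subunit of early development, held 72.1%, 72.3% and 71.2% of its family. Gria2 held 50.9%, 51.1% and 42.7% of the AMPA receptor genes and Gria1 28.6%, 28.6% and 36.7%, so that replicate 3 was the odd library for both. Gabra3 (32.5% ± 0.851) and Gabra5 (26.0% ± 2.26) led the GABA-A alpha subunits. Scn3a, the embryonic sodium channel, held 38.5% ± 0.367 and Scn2a 27.3% ± 0.871 of the alpha subunits.

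Ratios of gene pairs known to exchange during development were taken in each library, as log2 of the TPM of the early gene over the late gene. The globin pair, Hbb-y and Hbb-bs, is of red cells and not of brain cells. Of the 13 pairs reported, 8 lay above 1 on this scale in every library. Vim exceeded Gfap by 8.59 ± 0.34, the fetal glycine receptor subunit Glra2 exceeded Glra1 by 7.41 ± 0.44 and Grin2b exceeded Grin2a by 4.89 ± 0.04 (178 ± 16.1 against 6.0 ± 0.697 TPM). Gfap (0.711 ± 0.172 TPM) and Glra1 (0.614 ± 0.0894 TPM) were under 1 TPM. With 1 TPM added to both genes of a pair, the ratio was 7.30 for Vim over Gfap and 6.02 for Glra2 over Glra1. Map1b exceeded Map1a by 4.74 ± 0.15, and Dcx exceeded Rbfox3, the antigen of mature neurons, by 4.48 ± 0.30. Smaller early-gene ratios were found for Scn3a over Scn1a (2.22 ± 0.14), for Slc17a6 over Slc17a7 (2.01 ± 0.13) and for Eno1 over the neuronal enolase Eno2 (1.55 ± 0.25, or 2.21 with the longest transcript).

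The other 5 pairs did not favour the early gene. Actl6a and Actl6b, subunits of the chromatin remodelling complex of progenitors and of neurons, were level at 88.5 ± 6.28 and 85.5 ± 1.79 TPM. Their log2 ratio was -0.05, 0.09 and 0.10, and the ratio of CPM had the opposite sign. Slc12a5, the chloride exporter of maturing neurons, was above the importer Slc12a2 at 77.5 ± 4.57 against 51.4 ± 7.30 TPM (log2 ratio -0.54, -0.49 and -0.77). The mean ratio of -0.60 was -0.16 with the longest transcript as the length and -0.05 as a ratio of CPM, close to level. Ptbp2, the neuronal splicing repressor, exceeded Ptbp1, with log2 ratios of -1.15, -1.13 and -0.49, and a mean of -0.92 that was -1.52 with the longest transcript. Ptbp1 overlaps Plppr3 (264 CPM), so its value is uncertain. The de novo methyltransferase Dnmt3a was above Dnmt3b (131 ± 1.64 against 9.08 ± 0.607 TPM), and adult Hbb-bs above embryonic Hbb-y by a log2 ratio of -6.62, -5.95 and -5.27 for Hbb-y over Hbb-bs. For Ptbp1 over Ptbp2 and Hbb-y over Hbb-bs replicate 3 lay closest to 0.

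**Figure D4:**
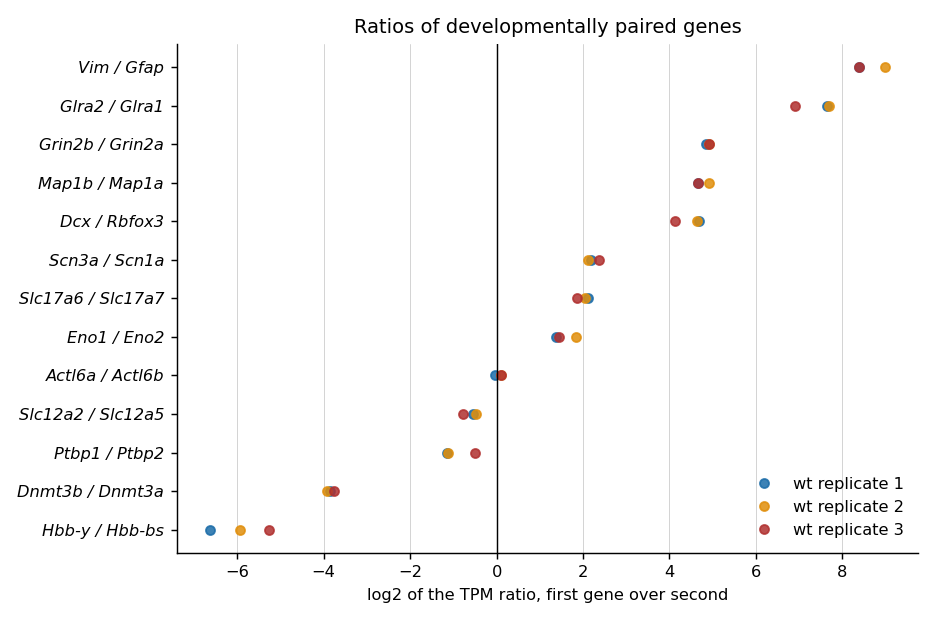
Log2 of the TPM ratio of the first over the second gene in 13 developmental gene pairs, with 1 point per wild-type library and a line at 0 for equal levels. In 8 pairs every library lies above 1, Actl6a over Actl6b sits on the line, and Slc12a2, Ptbp1, Dnmt3b and Hbb-y lie below their partners in every library.

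Dyrk1a, the kinase gene of the mutant line (chr16:94570010-94695517), was read in wild type only. It stood at 176, 185 and 161 CPM (174 ± 12.5), or 117 ± 11.5 TPM, at rank 1151 of all genes by CPM. Replicate 3 was the lowest library.

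By chromosome, 71.9% (chromosome 14) to 86.3% (chromosome 18) of listed autosomal coding genes reached 1 TPM, and the medians of those that did ran from 28.3 TPM on chromosome 14 to 40.4 TPM on chromosome 8. On the X chromosome 513 of 685 coding genes did, with a median of 34.3 TPM. The X to autosome ratio of median TPM was 1.02, 1.03 and 0.926 in the libraries, or 0.995 ± 0.0599, lowest in replicate 3. The labels give no sex. The Y-linked genes Eif2s3y (71.3, 78.8 and 59.0 CPM), Kdm5d (145, 153 and 132 CPM), Ddx3y (60.5, 62.0 and 47.8 CPM) and Uty (87.2, 91.8 and 54.8 CPM) were present in every library. Xist, the RNA of the inactive X chromosome in females, was at 0.943, 0.791 and 0.574 CPM.

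Spread between the libraries exceeded counting error at every level. The median coefficient of variation (CV) was 16.8% from 1 to 5 CPM, where counting alone gives 12.8%, and 10.1% against 5.72% from 5 to 20 CPM. From 20 to 100 CPM it was 7.27% against 2.88%, and from 100 to 1000 CPM 6.61% against 1.47%. It thus levelled off near 6.61%, a value also found for the 45 genes at 1000 CPM or more. The common biological coefficient of variation from edgeR, the spread beyond counting over all genes, was 0.130 over 18617 genes. It was 0.0828 without replicate 3, 0.157 without replicate 2 and 0.141 without replicate 1.

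Among genes with a mean of at least 20 CPM the 10 with the largest CV were each set by 1 or 2 libraries. Tuba1c, an alpha tubulin, stood at 5.11, 6.77 and 103 CPM, high in replicate 3 only. Tmprss11a, a serine protease gene of epithelia, stood at 3.38, 245 and 460 CPM, and the Y RNA gene Rny3, of Ro ribonucleoproteins, at 18.2, 214 and 306 CPM, both low in replicate 1. Lars2, the mitochondrial leucyl-tRNA synthetase, stood at 106, 14.8 and 13.6 CPM. Replicate 1 was also the high library for Gm42418 and for CT010467.1 (233, 33.0 and 36.4 CPM), a gene annotated as ribosomal RNA that overlaps it on chromosome 17. Nuclear ribosomal RNA genes as a class took 0.0246%, 0.00463% and 0.00476% of counts, also highest in replicate 1, and the part of ribosomal RNA reads in the Gm42418 value was not tested. The pseudogene Gm15459 was at 83.8, 83.4 and 0.826 CPM, near 0 in replicate 3 only. The small nuclear RNA genes Gm24265 (69.7, 107 and 358 CPM) and Gm24407 (46.0, 62.5 and 209 CPM) and the small nucleolar gene Gm23442 (6.33, 11.3 and 57.9 CPM), which lies within Prrc2a, were highest in replicate 3. Several of these genes are repetitive or have near-identical copies.

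At the even end, among genes with a mean of at least 100 CPM, the lowest CVs were those of the lysosomal membrane protein Scarb2 (214, 214 and 214 CPM, CV 0.154%), the actin filament protein Afap1 (202, 203 and 203 CPM, CV 0.206%) and the tetraspanin Tspan5 (CV 0.276%). Vopp1, Depdc5, Mycbp2, Chd2, Atp5c1, Ipo5 and Heatr5b followed, with CVs up to 0.489%. These CVs are below what counting alone gives (1.28% for Scarb2 and 1.32% for Afap1), so 3 libraries do not rank such genes.

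**Figure D5:**
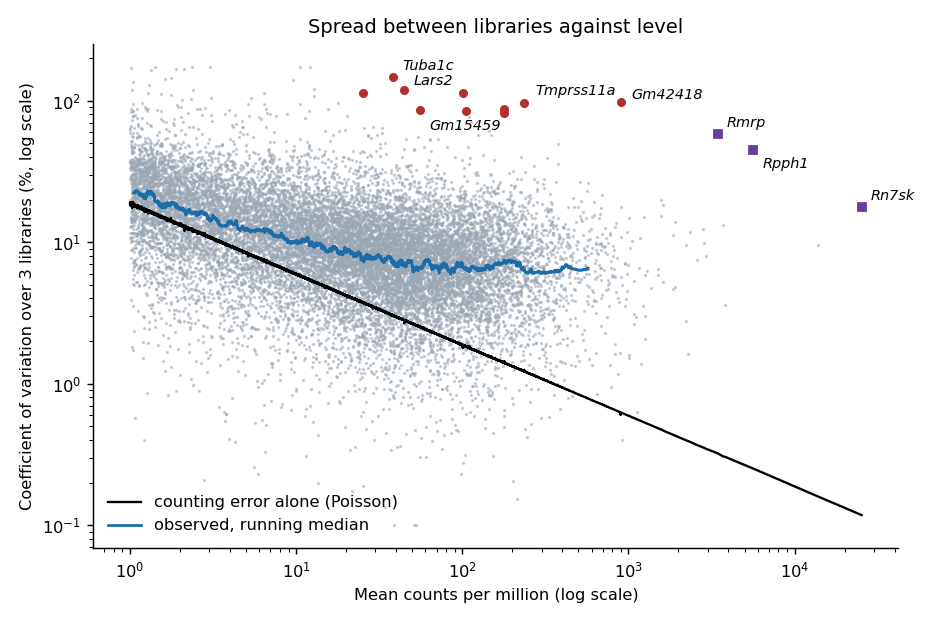
Coefficient of variation over the 3 wild-type libraries (percent, log scale) against mean CPM (log scale) for genes at 1 CPM or more, with the running median over genes in blue and the CV from counting alone in black. The blue line leaves the black line with rising level and flattens near 6.61%; red points are the 10 genes of largest CV at 20 CPM or more, and squares the 7SK, RNase P and RNase MRP RNAs.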

How the data were processed

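RNA of wild-type forebrain at E15.5 was measured in 3 libraries by bulk RNA sequencing. The deposited table holds raw read counts per Ensembl gene, 1 column per library. Per the submitters' processing notes, the authors used bcl2fastq 2.17.1.14, HISAT2, SAMtools 1.9 and HTSeq 0.9.1 on GRCm38/mm10. The release of the annotation, strandedness and treatment of multi-mapped reads were not given in the sources used here. The molecule is labelled polyadenylated RNA, while the protocol describes ribosome-depleted total RNA. The table has counts for 7SK and other untailed RNAs.

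Gene symbols, classes and exon lengths came from GENCODE M21 on GRCm38, which gave a symbol to 32888 of 33084 identifiers. The other 196 took 0.111% of counts. CPM used the total of all listed genes. TPM used the length of the union of exons and a total over nuclear protein-coding genes. That total was chosen after it was seen that short structural RNAs dominate a total over all genes. Dispersion was estimated in R 4.3.3 with edgeR 4.0.16 (intercept only, filterByExpr, TMM factors 0.994 to 1.01) and checked on simulated counts, and DESeq2 1.42.0 gave alternative size factors. Tables were made with Python 3.11.15 and pandas 2.3.3. No group was compared and no hypothesis test was run on the data.

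The libraries and gene lists were chosen with earlier results of these data known. The 23 cell type and region lists, 13 functional lists, 28 families and 15 pairs hold 670 genes, of which 647 were measured, and the rest are not analysed here. Named genes are the 20 highest by CPM, the 10 highest nuclear coding genes by TPM, the 10 highest long non-coding RNAs, the 3 highest of each list, pair members, the 2 highest of each family, the 10 most and 10 least variable genes, and Dyrk1a; others are named as textbook markers or overlapping genes, chosen after their values were seen. Values of a few of these genes are not reported here. Promoter windows came from RefSeq (GRCm38.p6), matched by symbol or synonym for 80.1% of coding genes outside chromosome 18, which was left out after its coverage was seen. Alternatives were other scalings, thresholds, lengths and totals, 1 TPM added to both genes of a pair, and leaving out each library in turn. The depth, 25270710 to 32865708 counts, gives a limit of 0.0913 to 0.119 CPM per library for a gene with 0 counts.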

Additional observations from a re-analysis of the deposited data

How the results depend on the processing

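No paired analysis was possible because only 1 group was used and no groups were compared. The number of genes at the expression threshold was 16836 at 1 CPM, 10950 at 10 CPM and 23076 at 0.1 CPM, and other scalings or leaving out a library moved it by less than 1.5 times. The share of counts in the highest 100 genes was 16.2%, and 13.4% when mitochondrial genes and structural RNAs were left out of the genes and the total. The common biological coefficient of variation was 0.130, 0.143 with no filter on low counts, and 0.0828 to 0.157 when a library was left out, lowest without replicate 3. The X to autosome ratio was 0.995, and 0.925 when genes from 0.1 TPM entered. The log2 ratio of Actl6a over Actl6b was 0.05 and turned to -0.086 as a ratio of CPM, a choice added after seeing the data. With 1 TPM added to both genes, 4 of 15 pair ratios moved by more than 1 SD. With the longest transcript as the length, 11 of 15 pair ratios, 18 of 28 family shares and 15 of 23 list medians moved by more than 1 SD, the leader changed for beta tubulin and Elavl, and the order of the 23 list medians had a Spearman correlation of 0.968 with that given above. A TPM total over all genes, also added later, moved 23 of 23 list medians. Leaving out replicate 1, 2 or 3 moved 4, 2 and 4 of the 23 list medians by more than 1 SD. The midbrain and hindbrain median was 0.132 TPM without replicate 1, against 0.283 TPM, and 0.392 TPM without replicate 2. From 20 CPM up, counting gave a median CV of 2.88% or less, under the observed spread, while from 1 to 5 CPM it gave 12.8% beside an observed 16.8%.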
